A study of Mus musculus with 25 samples.

Results

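The 10 genes Hspa1a, Hspa1b, Hspa8, Hsph1, Hsp90aa1, Hsp90ab1, Dnajb1, Hspb1, Hspd1 and Hspe1, which encode cytosolic and mitochondrial heat shock proteins, were followed in mouse liver. A locus was taken when its name, divided at the commas, held 1 of these symbols. The tables hold 45483 symbols in all. Expression values played no part in that rule, but the genes were chosen with earlier results of these data known. The 10 genes fell into 9 loci in each cohort, because the neighbouring genes Hspa1a and Hspa1b were merged into 1 locus. All 9 loci had a mean of at least 1 FPKM (fragments mapped to a transcript, scaled by its length and by the fragments mapped in the library) in both cohorts. They were tested among 10963 loci at 20 weeks and 11441 loci at 39 weeks.

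All 25 mice were C57BL/6 and were labelled either Ncoa5+/-, with 1 disrupted copy of the nuclear receptor coactivator gene Ncoa5, or wild type. The younger cohort held 4 untreated mice labelled Ncoa5+/- and 4 untreated wild type mice, aged 20 weeks. The older cohort, aged 39 weeks, held 10 mice labelled Ncoa5+/-, of which 5 received metformin and 5 did not, and 7 wild type mice, of which 3 received metformin and 4 did not. Metformin, a glucose-lowering drug, was dissolved in the drinking water from 8 weeks of age for 31 weeks, for an intake of about 250 mg/kg/day. RNA came from whole liver tissue, so fewer cells of a type and less RNA per cell cannot be told apart. Replicate numbers name mice within a group and pair nothing between groups.

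Heat shock proteins are chaperones that bind unfolded protein and help it fold, dissolve or be destroyed. In the cytosol, Hsp70 proteins hold and release their clients with the help of Hsp40 and Hsp110 partners, and Hsp90 proteins finish the folding of kinases and steroid receptors. In the mitochondrial matrix, Hsp60 and Hsp10 form a barrel in which imported proteins fold. The inducible members are switched on by heat shock factor 1, which trimerises under protein stress and binds repeats of the sequence nGAAn, called heat shock elements, in front of these genes. In liver the constitutive members are abundant at rest, while the inducible Hsp70 genes are kept low and respond within a short time to heat, oxidants, ischaemia or surgery.

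The libraries differed in makeup but each looked like liver. The lowest and highest FPKM sums were 695645 and 1613503 at 20 weeks, while the older cohort spanned 857291 to 2089981, and the number of reads behind them is unknown. In wild type replicate 4 at 20 weeks and, at 39 weeks, metformin-treated Ncoa5+/- replicate 5 and untreated Ncoa5+/- replicate 3, the 50 highest loci took 78.7%, 72.5% and 78.3% of the FPKM sum. Ncoa5 itself did not separate the labels. At 20 weeks it ranged from 2.90 to 5.03 FPKM in mice labelled Ncoa5+/- and from 3.11 to 5.30 FPKM in wild type mice, and at 39 weeks from 2.63 to 4.42 FPKM in mice labelled Ncoa5+/- and from 3.58 to 6.64 FPKM in wild type mice. The labels do not say which part of the gene was disrupted, so every genotype direction below rests on the labels. Hepatocyte markers summed to 7939 to 8979 FPKM in mice labelled Ncoa5+/- and 6295 to 9242 FPKM in wild type mice at 20 weeks. At 39 weeks the same 10 markers summed to 6843 to 8594 FPKM in mice labelled Ncoa5+/- and 15780 to 19860 FPKM in wild type mice; Apoa1 is listed at 0 in every older mouse labelled Ncoa5+/- and every younger mouse, and Serpina1c in every mouse.

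Heat shock elements are a known feature of the promoters of heat shock genes, so the upstream sequences are shown here as a description. The part of these elements in the heat shock values was not tested. RefSeq promoter records (GRCm38.p6) were found for 7 of the 10 genes; those of Hspa8, Hsp90aa1 and Hsp90ab1 are not shown. In the 250 bases before each start, a short motif, GAANNTTC or TTCNNGAA, and a long motif, TTCNNGAANNTTC or GAANNTTCNNGAA, were sought. Each motif reads the same on both strands as a set, and each long match contains short matches. The short motif was found in 6 of the 7 genes, against 14.5% of 27025 genes in the promoter table, and the long motif in 2 of the 7, against 0.514%. The 7 genes were chosen by name as heat shock genes. They are not separate cases, because Hspa1a and Hspa1b are nearly identical upstream and Hspd1 and Hspe1 share a stretch. Capitals mark the short motif. Hspa1b stands for both Hsp70 genes, whose 250 upstream bases are identical at 247 positions (98.8%); its stretch is chr17:34959239-34959488 on the minus strand. The Hspb1 stretch is chr5:135887669-135887918 on the plus strand, and it holds 2 matches. Hspd1 and Hspe1 lie head to head, and the stretch between their annotated transcripts, chr1:55088025-55088131 on the plus strand, serves as upstream sequence of both. For Hsph1 only the 30 bases around its match are shown, chr5:149636351-149636380 on the minus strand.
Hspa1b: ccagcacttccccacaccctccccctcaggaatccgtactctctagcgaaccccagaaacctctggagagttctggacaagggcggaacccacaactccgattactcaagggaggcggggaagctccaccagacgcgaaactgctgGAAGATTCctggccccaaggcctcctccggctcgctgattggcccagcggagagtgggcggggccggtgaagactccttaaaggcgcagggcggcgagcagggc
Hspb1: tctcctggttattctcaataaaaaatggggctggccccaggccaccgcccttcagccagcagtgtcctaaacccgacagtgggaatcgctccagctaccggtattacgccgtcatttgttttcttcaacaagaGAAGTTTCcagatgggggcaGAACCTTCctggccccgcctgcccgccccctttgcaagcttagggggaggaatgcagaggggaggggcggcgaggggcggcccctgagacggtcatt
Hspd1 and Hspe1: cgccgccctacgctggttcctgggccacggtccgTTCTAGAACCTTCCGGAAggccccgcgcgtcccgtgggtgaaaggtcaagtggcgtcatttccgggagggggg
Hsph1: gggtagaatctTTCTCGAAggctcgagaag
In the stretch between Hspd1 and Hspe1 the 4 units TTC, GAA, TTC and GAA follow each other at even spacing, which makes 3 overlapping short matches and 2 long ones. Hspd1 has another recorded start whose 250 upstream bases hold no match. The match of Hspa1b begins 104 bases before the start, and those of Hspb1 begin 117 and 97 bases before it. The 250 bases before either recorded start of Dnajb1 held neither motif. A match is a description of the letters in the window and no evidence of binding.

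Reads of these genes can be shared with close copies, which makes the absolute levels uncertain. Of all 50-base windows of the longest coding transcript (GENCODE M21), 62.3% for Hspa1b occur in Hspa1a. For Hspa8, the constitutive Hsp70 gene, 74.8% occur in other genes, chiefly Gm15459, and its locus also carries the small nucleolar RNA genes Snord14c, Snord14d and Snord14e. The shared part was 58.5% for Hsp90aa1 and 51.6% for Hspb1. It was 44.8% for Hspd1 and also for Hspe1. For Hsp90ab1, Dnajb1 and Hsph1 it was 4.49%, 0.441% and 0. The loci of Hspd1 and Hspe1 have the same coordinates in the files (chromosome 1, 55077835 to 55091307 at 39 weeks), and the strand of the libraries is not given in the sources used here.

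The inducible Hsp70 locus, Hspa1a and Hspa1b (chromosome 17, 34956310 to 34972221 at 20 weeks, GRCm38.p5), varied more between mice of the same group than almost any other locus. At 20 weeks mice labelled Ncoa5+/- had 2.68, 4.32, 2.90 and 31.05 FPKM of it, while wild type mice had 5.24, 5.08, 0.887 and 1.496 FPKM. At 39 weeks it stood at 4.57, 5.66, 6.49, 4.42 and 10.75 FPKM in metformin-treated and at 10.65, 11.04, 2.49, 7.16 and 1.70 FPKM in untreated mice labelled Ncoa5+/-. Wild type mice had 4.55, 1.86 and 38.3 FPKM with metformin and 2.88, 107.0, 36.2 and 2.23 FPKM without it. Only 4 mice of the 25 passed 30 FPKM, and they belonged to 3 groups: Ncoa5+/- replicate 4 at 20 weeks, and at 39 weeks metformin-treated wild type replicate 3 and untreated wild type replicates 2 and 3. Every group overlapped the others at its age. The SD within groups was 1.22 on the log2(FPKM + 1) scale at 20 weeks and 1.55 at 39 weeks, larger than in 98.2% and 99.0% of all loci tested.

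**Figure D1:**
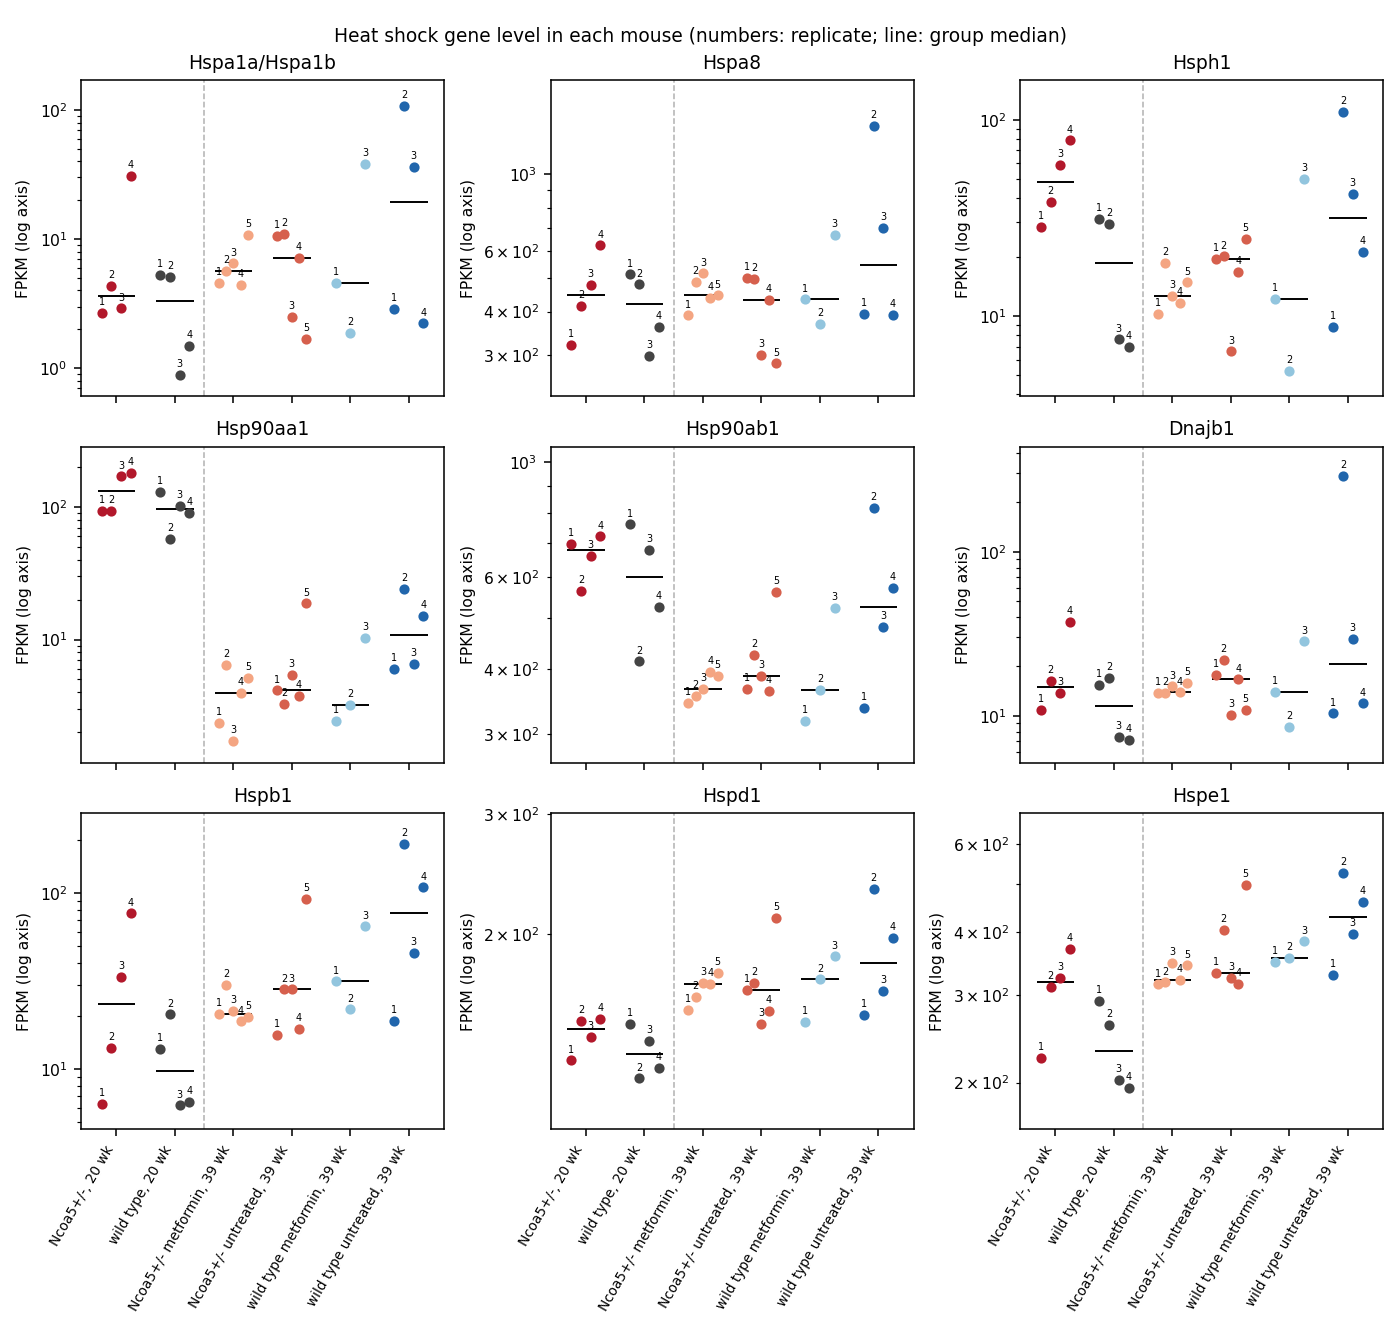
FPKM of each heat shock locus (vertical log axis) in each of 25 mice, with the groups along the horizontal axis, replicate numbers beside the points and a line at each group median; the dashed line parts the 20-week and the 39-week cohort, which were normalized separately. Hspa1a/Hspa1b runs from 1.70 to 107.0 FPKM at 39 weeks, with untreated wild type replicate 2 at the top, while Hspd1 stays between 147 and 233 FPKM.

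Dnajb1, the Hsp40 partner that loads clients onto Hsp70 (chromosome 8, 83608175 to 83611902), followed the same mice. At 20 weeks Dnajb1 had 10.8, 16.4, 13.8 and 37.4 FPKM in mice labelled Ncoa5+/- and 15.4, 17.1, 7.44 and 7.16 FPKM in wild type mice. At 39 weeks it had 13.8, 13.7, 15.1, 13.9 and 15.9 FPKM with metformin and 17.8, 21.9, 10.1, 16.7 and 10.8 FPKM without it in mice labelled Ncoa5+/-. In wild type mice Dnajb1 was 14.0, 8.55 and 28.4 FPKM with metformin and 10.3, 289.9, 29.5 and 11.9 FPKM without it. The value of 289.9 FPKM in untreated wild type replicate 2 was 20.8 times the median of the other 16 mice, as high a multiple as that of Hspa1a/Hspa1b in the same mouse, 20.9. The metformin-treated mice labelled Ncoa5+/- were the most even group, with an SD of 0.974 FPKM around 14.5 FPKM (n = 5).

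Hsph1, the Hsp110 protein that exchanges the nucleotide of Hsp70 (chromosome 5, 149614287 to 149636376), showed the widest difference between labels at 20 weeks. It had 28.5, 38.0, 58.7 and 78.4 FPKM in mice labelled Ncoa5+/- and 31.2, 29.5, 7.61 and 6.96 FPKM in wild type mice. Only Ncoa5+/- replicate 1 fell among the wild type mice, which themselves divided into the high replicates 1 and 2 and the low replicates 3 and 4. At 39 weeks Hsph1 had 10.3, 18.7, 12.7, 11.7 and 14.9 FPKM with metformin and 19.6, 20.2, 6.62, 16.8 and 24.6 FPKM without it in mice labelled Ncoa5+/-. Wild type mice had 12.3, 5.25 and 50.1 FPKM with metformin and 8.85, 109.1, 41.9 and 21.2 FPKM without it. The 2 highest older mice were again untreated wild type replicate 2 and metformin-treated wild type replicate 3.

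Hspa8, the Hsp70 protein made at all times (chromosome 9, 40800984 to 40805200), was more than 10 times as abundant per length as the inducible locus and varied less. At 20 weeks it had 321, 416, 479 and 622 FPKM in mice labelled Ncoa5+/- and 513, 479, 298 and 361 FPKM in wild type mice. At 39 weeks it had 390.3, 488, 516, 439 and 446 FPKM with metformin and 502, 497, 300.3, 433 and 283 FPKM without it in mice labelled Ncoa5+/-. Wild type mice had 434, 369 and 669 FPKM with metformin and 394, 1383, 701 and 391 FPKM without it. The top value was 3.17 times the median of the other mice, in untreated wild type replicate 2. The other 16 older mice stayed between 283 and 701 FPKM.

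The Hsp90 genes differed in level between the cohorts in a way that cannot be tested. Hsp90ab1, the constitutive cytosolic Hsp90 (chromosome 17, 45567775 to 45573290 at 20 weeks), had 695, 564, 661 and 719 FPKM in mice labelled Ncoa5+/- and 759, 413, 677 and 527 FPKM in wild type mice at 20 weeks. Older mice labelled Ncoa5+/- had 343, 355, 366, 395 and 388 FPKM of Hsp90ab1 with metformin and 366, 426, 388, 363 and 562 FPKM without it. Older wild type mice had 318, 364 and 525 FPKM with metformin and 336, 817, 482 and 572 FPKM without it. Its values overlapped between all groups of an age.

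Hsp90aa1, the inducible cytosolic Hsp90 (chromosome 12, 110690605 to 110702728 at 20 weeks), had 93.2, 94.1, 170.4 and 180.4 FPKM in mice labelled Ncoa5+/- and 131, 57.5, 102 and 90.4 FPKM in wild type mice at 20 weeks. At 39 weeks it was listed far lower, with 2.34, 6.48, 1.71, 3.96 and 5.17 FPKM with metformin and 4.13, 3.27, 5.44, 3.76 and 18.7 FPKM without it in mice labelled Ncoa5+/-. Wild type mice had 2.45, 3.24 and 10.3 FPKM with metformin and 6.04, 24.2, 6.58 and 15.04 FPKM without it. The Hsp90aa1 to Hsp90ab1 ratio within a mouse was 0.00468 to 0.0333 at 39 weeks and 0.134 to 0.258 at 20 weeks, with no overlap. The cohorts differ in age, facility, instrument and normalization, and the files list different extents for this locus, so these cannot be told apart. Within the older cohort Hsp90aa1 was highest in untreated wild type replicate 2, untreated Ncoa5+/- replicate 5 and untreated wild type replicate 4.

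Hspb1, the small heat shock protein that keeps unfolded protein from clumping (chromosome 5, 135887919 to 135889563), had 6.34, 13.2, 33.3 and 76.5 FPKM in mice labelled Ncoa5+/- and 13.0, 20.4, 6.20 and 6.47 FPKM in wild type mice at 20 weeks. At 39 weeks it had 20.6, 29.95, 21.3, 18.6 and 19.7 FPKM with metformin and 15.6, 28.3, 28.3, 16.9 and 92.2 FPKM without it in mice labelled Ncoa5+/-. Wild type mice had 31.4, 21.8 and 64.6 FPKM with metformin and 18.7, 190.8, 45.6 and 108 FPKM without it. Hspb1 was highest in the same 3 older mice as Hsp90aa1, of which only untreated wild type replicate 2 was also high in Hspa1a/Hspa1b. Metformin-treated wild type replicate 3 came next for both genes, at 64.6 FPKM of Hspb1 and 10.3 FPKM of Hsp90aa1. That mouse was also high in Hspa1a/Hspa1b, at 38.3 FPKM.

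The mitochondrial pair was the steadiest. Hspd1, which encodes Hsp60, had 130.2, 149, 141 and 150.0 FPKM in mice labelled Ncoa5+/- and 147, 123, 139 and 127 FPKM in wild type mice at 20 weeks. At 39 weeks Hspd1 lay between 154 and 175 FPKM in metformin-treated and between 147 and 211 FPKM in untreated mice labelled Ncoa5+/-, and between 149 and 185 FPKM in metformin-treated and 152 and 233 FPKM in untreated wild type mice. Its SD within groups at 20 weeks, 0.108 on the log2 scale, was larger than in 5.96% of loci.

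Hspe1, which encodes Hsp10, the lid of the Hsp60 barrel, had 224, 311, 324 and 370.3 FPKM in mice labelled Ncoa5+/- and 291, 261, 203 and 195 FPKM in wild type mice at 20 weeks. At 39 weeks Hspe1 had 315, 318, 348, 321 and 343 FPKM with metformin and 332, 405, 324, 315 and 497 FPKM without it in mice labelled Ncoa5+/-. Wild type mice had 349, 355 and 384 FPKM with metformin and 329, 527, 397 and 459.9 FPKM without it. The ratio of Hspd1 to Hspe1 had a median of 0.482 at 39 weeks and 0.492 at 20 weeks. By its SD within groups at 39 weeks, the order of the loci was Hspa1a/Hspa1b, Dnajb1 (1.12), Hsph1 (1.02), Hspb1 (0.945), Hsp90aa1 (0.82), Hspa8 (0.508), Hsp90ab1 (0.331), Hspe1 (0.214) and Hspd1 (0.187), against a median of 0.179 over 11441 loci.

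Counted per mouse, the high values gathered in a few animals. A locus was counted when it exceeded 2 times its median over the other mice of the cohort. In untreated wild type replicate 2 at 39 weeks 7 of 9 heat shock loci did so, against 2.67% of the 11332 loci counted in that mouse. In metformin-treated wild type replicate 3 there were 5 of 9, against 0.662% of loci, and in untreated wild type replicate 3 there were 3 of 9, against 1.31%. Untreated Ncoa5+/- replicate 5 and untreated wild type replicate 4 each had 2 of 9, Hsp90aa1 and Hspb1 in both, against 1.27% and 1.33%. Of the 5 metformin-treated mice labelled Ncoa5+/-, 4 had none and replicate 5 had 1, against 1.39% of loci. Below 0.5 times the median of the others lay 2 of 9 loci in untreated Ncoa5+/- replicate 3 (0.953% of loci), metformin-treated wild type replicate 2 (1.39%) and untreated wild type replicate 1 (1.37%). At 20 weeks Ncoa5+/- replicate 4 had 4 of 9, against 2.89% of loci. In that cohort wild type replicates 3 and 4 had 4 of 9 loci below 0.5 times the median of the others, namely Hspa1a/Hspa1b, Hsph1, Dnajb1 and Hspb1 in both mice, against 3.17% and 3.69% of loci.

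**Figure D2:**
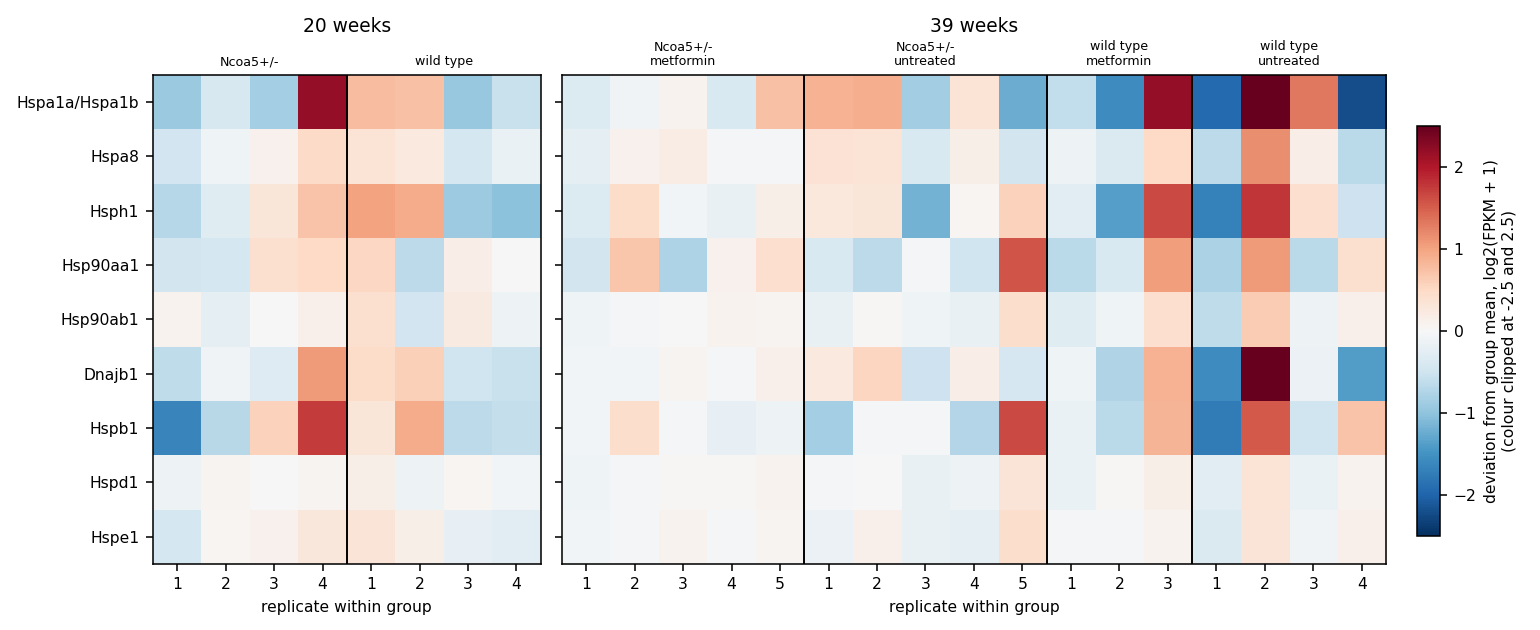
Deviation of each heat shock locus (rows) from its group mean on the log2(FPKM + 1) scale in each mouse (columns), at 20 weeks on the left and 39 weeks on the right and the largest deviations sharing the end colours. Untreated wild type replicate 2 is high in every row at 39 weeks, while untreated Ncoa5+/- replicate 5 and untreated wild type replicate 4 are low for Hspa1a/Hspa1b, Hspa8 and Dnajb1 and high for Hspb1 and Hsp90aa1.

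Immediate early genes were high in some of these mice and not in others. Fos, a transcription factor gene induced within minutes of many stimuli, stood at 76.5 FPKM in untreated wild type replicate 2, 7.85 FPKM in untreated wild type replicate 3 and at most 1.22 FPKM in the other 15 older mice. In metformin-treated wild type replicate 3, which had 38.3 FPKM of Hspa1a/Hspa1b, Fos was 0.32 FPKM. At 20 weeks Fos was 5.37 FPKM in Ncoa5+/- replicate 4 and at most 0.51 FPKM in the other 7 mice. Egr1, another such gene, reached 277.7 FPKM in untreated wild type replicate 2. Bag3, the Hsp70 co-chaperone that steers clients to autophagy, was 100.1 FPKM in that mouse, 46.9 FPKM in metformin-treated wild type replicate 3, 50.4 FPKM in untreated wild type replicate 3 and 13.6 to 29.2 FPKM in the other 14. Hspa5, the Hsp70 of the endoplasmic reticulum, was 684 FPKM in untreated Ncoa5+/- replicate 5 and 480 FPKM in untreated wild type replicate 4, and 1248 FPKM in untreated wild type replicate 2; the other 14 mice had 167 to 356 FPKM. The part of these genes' levels in the heat shock values was not tested.

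The comparison of labels at 20 weeks found higher mean values of the heat shock genes in mice labelled Ncoa5+/-, but none passed the test over all loci. With limma on log2(FPKM + 1) and Benjamini-Hochberg adjustment over 10963 loci, 0 of 9 loci had an adjusted p under 0.05, and percent called over all loci was 0. At an unadjusted p under 0.05, 1 locus was higher, against 5.05% of all loci. That locus was Hsph1, at 50.9 ± 22.2 FPKM in the 4 mice labelled Ncoa5+/- and 18.8 ± 13.4 FPKM in the 4 wild type mice (SD). Its log2 fold change was 1.59 ± 0.54 (SE, limma adjusted p = 0.603). Hspb1 averaged 32.3 ± 31.6 FPKM in mice labelled Ncoa5+/- and 11.5 ± 6.7 FPKM in wild type mice, a log2 fold change of 1.03 ± 0.70 (limma adjusted p = 0.616). For Hspa1a/Hspa1b the log2 fold change was 0.94 ± 0.72, and 0.21 without Ncoa5+/- replicate 4. It was 0.63 ± 0.41 for Dnajb1 and 0.28 without that mouse, and for Hspb1 0.44 without it. All 9 log2 fold changes were positive, as were 54.4% of all loci, and their median was 0.49 against 0.03. Without wild type replicate 4, the library with 78.7% of its FPKM in 50 loci, Hsph1 had a log2 fold change of 1.246. Wild type replicates 3 and 4, the 2 mice low in 4 heat shock loci, were also left out together, a choice made after the values were seen. Then 8 of 9 values were positive, against 54.3% of all loci, with a median of 0.19 against 0.02, and 0 were called. Without both mice the log2 fold change of Hsph1 was 0.62, that of Hspb1 0.41, that of Hspa1a/Hspa1b 0.19, that of Dnajb1 0.10 and that of Hspa8 -0.15.

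The authors' deposited table for the same comparison marked 4 of the 9 loci as significantly higher, against 1.29% of the 13975 loci it tested. In the authors' deposited table Hspa1a/Hspa1b stood at 13.4 FPKM in mice labelled Ncoa5+/- and 3.715 FPKM in wild type mice (q = 0.00414). The authors' deposited table gave Hsph1 as 43.7 FPKM in mice labelled Ncoa5+/- and 15.8 FPKM in wild type mice, and Hspb1 as 39.8 FPKM in mice labelled Ncoa5+/- and 12.9 FPKM in wild type mice, each with the same q. Dnajb1 was given as 20.1 FPKM in mice labelled Ncoa5+/- and 11.8 FPKM in wild type mice, with q = 0.00751 in the authors' deposited table. Among the partner genes, Bag3 and Chordc1, of 26 cochaperones and inducible partners, also carried the mark. So did Hspb8, of 16 further Hsp70, Hsp110 and small heat shock genes. Lists of 14 chaperonin and prefoldin genes, 13 mitochondrial folding genes and 5 heat shock factor genes were searched too. How many of these genes the deposited table tested is not given here, so no share is set beside them. Ncoa5+/- replicate 4 had the highest value of all 8 mice for each of the 4 marked heat shock loci. The deposited group values differ from the means per mouse, such as 43.7 against 50.9 FPKM for Hsph1 in mice labelled Ncoa5+/-. The reason was not tested.

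Most partner genes had positive values at 20 weeks without any adjusted call, and wild type replicates 3 and 4 again stood apart. Of 26 cochaperones and inducible partners, limma called 0 higher and 0 lower, 22 were positive, against 54.4% of all loci, and 5 were higher at an unadjusted p under 0.05, against 5.05%. Without wild type replicates 3 and 4, 21 were positive and 1 was higher at an unadjusted p under 0.05, against 1.05% of all loci. The smallest p values were those of Bag2 (log2 fold change 0.46 ± 0.15), Chordc1 (0.88 ± 0.28), a partner of Hsp90, and Dnaja2 (0.45 ± 0.19), all with a limma adjusted p of 0.603. Chordc1 had 23.6, 30.1, 35.9 and 34.1 FPKM in mice labelled Ncoa5+/- and 22.9, 24.0, 9.96 and 12.3 FPKM in wild type mice. Dnaja2 had 43.6, 46.6, 51.9 and 47.4 FPKM in mice labelled Ncoa5+/- and 41.4, 44.9, 26.9 and 27.5 FPKM in wild type mice. In both genes wild type replicates 1 and 2 were close to the mice labelled Ncoa5+/- and replicates 3 and 4 lay below all of them. Of 8 tested members of the further Hsp70, Hsp110 and small heat shock genes, 7 were positive, led by Hspa13 (0.41 ± 0.13), Hspb8 (0.83 ± 0.33) and Hspa4l (0.46 ± 0.19), with 0 called. All 14 subunits of the cytosolic chaperonin and prefoldin were positive, 9 of them without wild type replicates 3 and 4, and 0 were called; Vbp1, a prefoldin subunit, had 0.51 ± 0.14, followed by Cct3 (0.46 ± 0.18) and Pfdn4 (0.45 ± 0.19). Of 15 loci of endoplasmic reticulum chaperones, 14 were positive, 12 were higher at an unadjusted p under 0.05, 6 without wild type replicates 3 and 4, and 0 were called. The mitochondrial folding and protease genes did not lean, with 6 of 12 positive and 0 called, Dnaja3 (0.18 ± 0.11), Hspa9 (0.17 ± 0.11), the mitochondrial Hsp70, and Grpel1 (0.15 ± 0.10) leading. Hsf1 was 3.60 to 6.11 FPKM in mice labelled Ncoa5+/- and 3.72 to 5.31 FPKM in wild type mice, with a log2 fold change of 0.06 ± 0.16 (limma adjusted p = 0.89). Of the other heat shock factor genes, Hsf2 had 0.37 ± 0.24 and Hsf4 -0.07 ± 0.13. Hsbp1, which encodes a heat shock factor binding protein, had 0.21 ± 0.16, and 0 were called.

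Markers of other liver cells differed between the mice at 20 weeks. The 10 Kupffer cell markers summed to 83.8, 50.2, 50.4 and 55.9 FPKM in mice labelled Ncoa5+/- and 58.1, 88.0, 147.6 and 120.6 FPKM in wild type mice. Wild type replicates 3 and 4, low in Hspa1a/Hspa1b, Hsph1, Dnajb1 and Hspb1, stood apart here too, while replicate 1 lay among the mice labelled Ncoa5+/- and replicate 2 just above them. All 10 log2 fold changes of these markers were negative, with and without wild type replicates 3 and 4, and 0 were called. The 7 lymphocyte markers, none of which was at 0 in any mouse, were mostly 1 gene, the immunoglobulin heavy chain gene Ighm. It had 11.9, 9.59, 3.86 and 7.23 FPKM in mice labelled Ncoa5+/- and 21.0, 23.5, 13.3 and 22.3 FPKM in wild type mice. The other 6 had at most 1.19 FPKM in any mouse, and only 1 of the 7 loci was tested. The 6 neutrophil markers summed to 2.89, 2.10, 18.8 and 15.5 FPKM in mice labelled Ncoa5+/- and 1.81, 2.82, 3.09 and 3.41 FPKM in wild type mice. Ncoa5+/- replicates 3 and 4 stood apart, and both of the 2 neutrophil loci tested were positive, with a median of 0.98 and 0 called. Ly6g, a defining neutrophil marker, was listed at 0 in all mice but Ncoa5+/- replicate 3. The part of these cells in the heat shock values was not tested.

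In untreated mice at 39 weeks the direction was the opposite, with lower means in mice labelled Ncoa5+/-, and again no locus passed. Limma called 0 of 9 loci, against 0.262% of all loci (30 of 11441), and 0 of 9 had an unadjusted p under 0.05, against 5.62%. The smallest p was that of Hspa8, at 403 ± 105 FPKM in the 5 mice labelled Ncoa5+/- and 717 ± 467 FPKM in the 4 wild type mice (SD). Its log2 fold change was -0.67 ± 0.31 (limma adjusted p = 0.877). Dnajb1 averaged 15.5 ± 5.0 FPKM in mice labelled Ncoa5+/- and 85.4 ± 136.6 FPKM in wild type mice, a log2 fold change of -1.09 ± 0.69. All 9 values were negative, as were 55.5% of all loci, with a median of -0.86 against -0.02. Untreated wild type replicate 2 carried much of this: without it the log2 fold change of Dnajb1 was -0.05, that of Hspa1a/Hspa1b -0.27 in place of -1.22, and that of Hspa8 -0.28. Without both wild type mice with Fos above 5 FPKM the sign turned for Hspa1a/Hspa1b (0.86), Dnajb1 (0.39) and Hsph1 (0.22). The values of Hspb1 (-1.15 ± 0.58) and Hsp90aa1 (-0.86 ± 0.50) were -0.63 and -0.67 without those 2 mice.

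**Figure D3:**
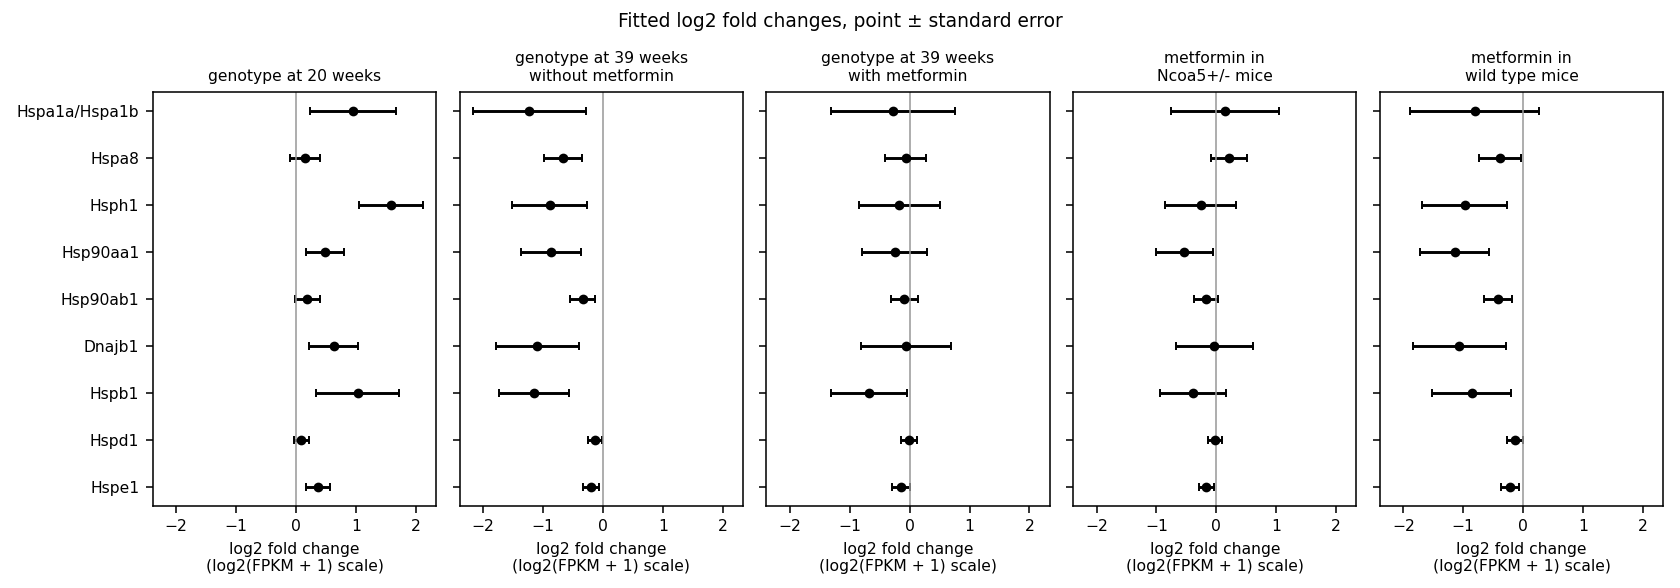
Log2 fold change of each heat shock locus (rows) with its standard error, on the log2(FPKM + 1) scale, in 5 comparisons: the label Ncoa5+/- over wild type at 20 weeks and at 39 weeks without and with metformin, and metformin over no metformin within each label. All 9 points lie above 0 at 20 weeks and below 0 in untreated mice at 39 weeks; no locus passed an adjusted p of 0.05 in any panel.

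Among partner genes of untreated older mice, 21 of 26 cochaperones were negative, 0 called, with Dnaja1 (-0.65 ± 0.33), Bag3 (-0.76 ± 0.41) and Ptges3 (-0.17 ± 0.10) at the smallest p. Of the further Hsp70, Hsp110 and small heat shock genes 7 of 8 were negative, 0 called, with Hspb8 at -0.41 ± 0.20, Cryab at 0.24 ± 0.12 and Hspa4 at -0.18 ± 0.13. The chaperonin and prefoldin genes had 10 of 14 negative, with Vbp1 at -0.20 ± 0.10, and the mitochondrial folding genes 3 of 12, with Dnaja3 at -0.14 ± 0.08, and 0 were called in either list. Immediate early genes were negative in 11 of 11 tested, against 55.5% of all loci, with 2 at an unadjusted p under 0.05, against 5.62%, and 0 called. The 10 Kupffer cell markers were negative too, 0 called, with a median of -0.35 against -0.02 over all loci. They summed to 126 to 346.2 FPKM in mice labelled Ncoa5+/- and 199.2 to 510.2 FPKM in wild type mice, highest in untreated wild type replicate 3. Of 8 endothelial markers 7 were negative and 0 called, with sums of 83.7 to 159 FPKM in mice labelled Ncoa5+/- and 114 to 164 FPKM in wild type mice. The part of these cells in the heat shock values was not tested. Hsf1 lay between 7.51 and 9.06 FPKM in mice labelled Ncoa5+/- and between 7.40 and 9.40 FPKM in wild type mice (log2 fold change -0.11 ± 0.08, limma adjusted p = 0.913).

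Between metformin-treated mice, heat shock loci differed little by label. Limma called 0 of 9, against 0.157% of all loci (18 of 11441), and 0 had an unadjusted p under 0.05, against 4.35%. All 9 log2 fold changes were negative, as in 51.8% of all loci, but the median was -0.14, against -0.01. Hspe1 was the only locus without overlap, at 315 to 348 FPKM in mice labelled Ncoa5+/- and 349 to 384 FPKM in wild type mice, as were 1.72% of loci in that direction (log2 fold change -0.14 ± 0.15, limma adjusted p = 1). The sign hung on metformin-treated wild type replicate 3: without it 7 of the 9 values turned positive, among them Hspa1a/Hspa1b at 0.83 in place of -0.27 and Hsph1 at 0.66 in place of -0.17. Of 26 cochaperones 14 were negative and 0 called; Dnaja2, at 0.26 ± 0.11, had the smallest p. Hsf1 had a log2 fold change of -0.02 ± 0.09.

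Metformin in mice labelled Ncoa5+/- moved no heat shock locus past the test. Limma called 0 of 9, as in 0 percent of all loci, and 0 of 9 had an unadjusted p under 0.05, against 8.83%. Hspb1 averaged 22.02 ± 4.54 FPKM with metformin and 36.3 ± 31.9 FPKM without it (SD, n = 5 each), a log2 fold change of -0.40 ± 0.55 (limma adjusted p = 0.861), and 0.01 without untreated replicate 5. The authors' deposited table marked Hspb1 as significantly lower, at 29.8 FPKM with metformin and 47.9 FPKM without it (q = 0.0117), and no other of the 9 loci, against 0.84% of the 14159 loci it tested. These deposited group values differ from the means per mouse, 22.02 and 36.3 FPKM, and the reason was not tested. Hspe1 averaged 329 ± 16 FPKM with metformin and 375 ± 77 FPKM without it, a log2 fold change of -0.17 ± 0.13. Hspa8 had 0.21 ± 0.30 and Hspa1a/Hspa1b 0.14 ± 0.90, the only positive values, where 50% of all loci were positive. For each of the 9 loci the SD in FPKM was smaller with metformin than without it, and untreated replicate 5 was the highest of its group for 6 of them. The share of all loci with a smaller SD was not taken. Several of the 9 loci varied together between mice, so they are not separate observations, and a difference in spread was not tested. Among the mitochondrial folding genes Clpp (-0.19 ± 0.07), a matrix protease, Grpel2 (0.34 ± 0.15) and Hscb (-0.52 ± 0.23) had an unadjusted p under 0.05, and 0 of 12 were called. Hsf1 had -0.13 ± 0.08. Of 14 loci of endoplasmic reticulum chaperones 13 were negative, 0 called.

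Metformin in wild type mice gave lower means for all 9 loci, as in 52.5% of all loci, with a median log2 fold change of -0.81 against -0.01. None passed: limma called 0 of 9 loci, as in 0 percent of all loci, and 0 had an unadjusted p under 0.05, against 9.35%. Hsp90aa1 had the smallest p, at 5.32 ± 4.31 FPKM in the 3 mice with metformin and 13.0 ± 8.6 FPKM in the 4 without it (SD). Its log2 fold change was -1.14 ± 0.57 (limma adjusted p = 0.558). Hsph1 averaged 22.5 ± 24.1 FPKM with metformin and 45.3 ± 44.7 FPKM without it. This comparison shares its untreated mice with the comparison of labels without metformin, so the 2 are not independent. Without untreated replicate 2 the log2 fold change of Dnajb1 was -0.03 in place of -1.06 and that of Hspa1a/Hspa1b 0.14 in place of -0.81; without treated replicate 3 it was -1.91 for Hspa1a/Hspa1b. Hsf1 had -0.23 ± 0.09 (limma adjusted p = 0.462), with 6.36 to 8.30 FPKM with metformin and 7.40 to 9.40 FPKM without it. Pfdn2, a prefoldin subunit, had the smallest p of the partner lists (-0.47 ± 0.12, limma adjusted p = 0.267). Of 26 cochaperones 20 were negative and 0 called.

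The interaction of label and metformin, which asks whether the drug effect differed between the labels, was not called for any locus. Limma called 0 of 9, as in 0 percent of all loci, and 0 had an unadjusted p under 0.05, against 2.79%. The 9 estimates were positive, as in 52.3% of all loci, with a median of 0.60. Dnajb1 had the largest, 1.03 ± 1.02 (limma adjusted p = 0.991), and -0.01 without untreated wild type replicate 2. Hspe1 had the smallest, 0.05 ± 0.20.

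Within groups, several pairs of heat shock loci varied closely together at 39 weeks. Correlations were taken between the deviations of log2(FPKM + 1) from the group means over 17 mice, for 36 pairs, with permutation p-values of 100000 draws. The permutations moved deviations across groups, although those of a group are tied to its mean and the groups differ in spread. The p-values are therefore approximate and may be too small. The mice share libraries between the genes, so that a library effect on all genes also correlates them. Hspa1a/Hspa1b and Hspa8 had r = 0.948 and rho = 0.946 (permutation p = 1e-05 for each, the smallest these permutations can give, adjusted 5.1e-05 for r and 0.00012 for rho; r = 0.927 without the 2 mice farthest from the median of Hspa1a/Hspa1b). Hspa8 and Dnajb1 had r = 0.939 and rho = 0.900 (permutation p = 1e-05 for each, adjusted 5.1e-05 and 0.00012; r = 0.896 without 2 mice). Hsp90ab1 and Hspb1 had r = 0.908 and rho = 0.841 (permutation p = 1e-05 and 0.00012, adjusted 5.1e-05 and 0.00062; r = 0.822 without 2 mice). Hspd1 and Hspe1 had r = 0.916 and rho = 0.880 (permutation p = 1e-05 and 2e-05, adjusted 5.1e-05 and 0.00014; r = 0.828 without 2 mice). Between the Hsp70 genes or Dnajb1 and the other loci the values ranged widely. Hspa1a/Hspa1b and Hspb1 had r = 0.290 and rho = 0.140 (permutation p = 0.257 and 0.592, adjusted 0.281 and 0.646; r = -0.133 without 2 mice). Hspa8 and Hsp90aa1 had r = 0.178 and rho = 0.044 (permutation p = 0.496 and 0.868, the same after adjustment; r = -0.009 without 2 mice). Dnajb1 and Hsp90ab1 had r = 0.652 and rho = 0.328 (permutation p = 0.007 and 0.198, adjusted 0.013 and 0.310; r = 0.094 without 2 mice). Dnajb1 and Hspd1 had r = 0.532 and rho = 0.385 (permutation p = 0.031 and 0.127, adjusted 0.048 and 0.208; r = -0.038 without 2 mice). Hspa8 and Hsp90ab1 had r = 0.503 and rho = 0.179 (permutation p = 0.042 and 0.490, adjusted 0.060 and 0.572; r = 0.344 without 2 mice). Hspa1a/Hspa1b and Hsp90ab1 had r = 0.498 and rho = 0.216 (permutation p = 0.041 and 0.404, adjusted 0.060 and 0.537; r = 0.063 without 2 mice). Hsph1 and Hspa1a/Hspa1b had r = 0.839 and rho = 0.762 (permutation p = 7e-05 and 0.00065, adjusted 0.00019 and 0.002; r = 0.690 without 2 mice). Hsph1 and Hsp90ab1 had r = 0.766 and rho = 0.532 (permutation p = 0.00054 and 0.031, adjusted 0.001 and 0.062; r = 0.533 without 2 mice). Hspd1 and Hspe1 also varied with loci outside the mitochondrial pair. Hsp90ab1 and Hspd1 had r = 0.922 and rho = 0.870 (r = 0.875 without 2 mice). Hspb1 and Hspe1 had r = 0.888 and rho = 0.775 (r = 0.781 without 2 mice), while Hspa1a/Hspa1b and Hspe1 had r = 0.257. Over all 36 pairs r ran from 0.178 to 0.948. The median was 0.665, and 0.399 with 2 mice left out of each pair. Whether these correlations differ was not tested.

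**Figure D4:**
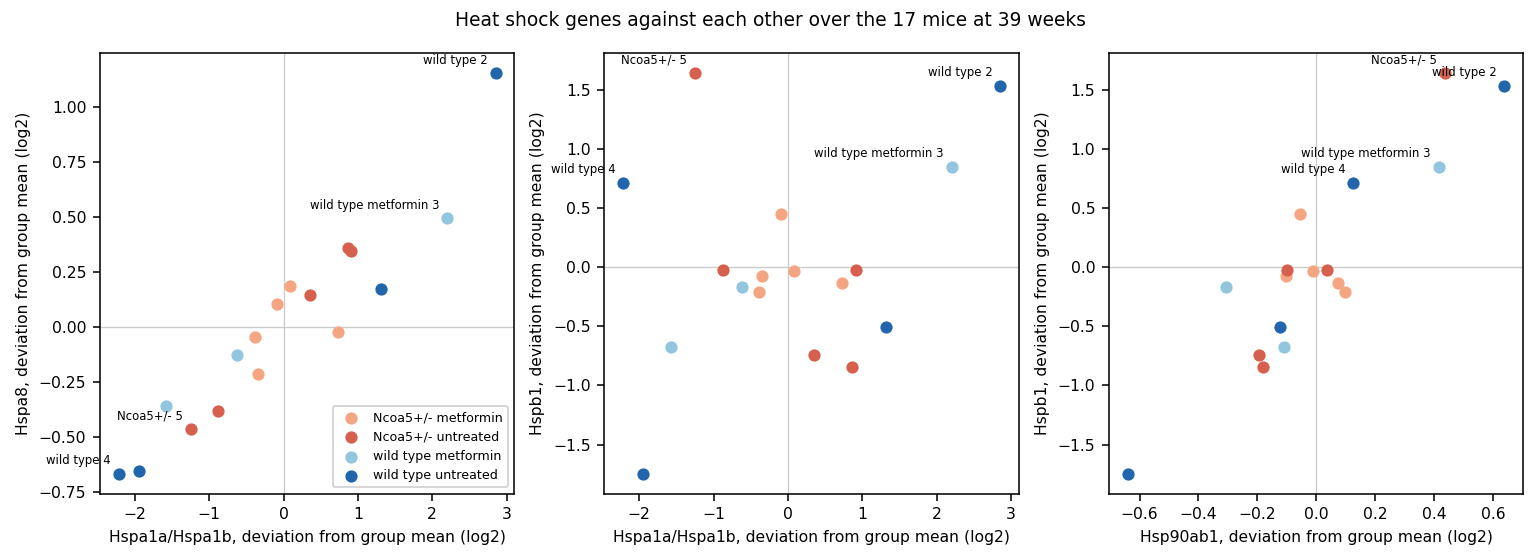
Deviations from the group mean (log2(FPKM + 1)) of Hspa8 and Hspb1 against Hspa1a/Hspa1b, and of Hspb1 against Hsp90ab1, for the 17 mice at 39 weeks, with 4 mice named by label and replicate. The points follow a line in the left panel (r = 0.948) and the right panel (r = 0.908), while in the middle panel (r = 0.290) untreated Ncoa5+/- replicate 5 and untreated wild type replicate 4 are high for Hspb1 and low for Hspa1a/Hspa1b.

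At 20 weeks the correlations were taken over 8 mice, and exact means here that all orders of the mice were tried. These permutations also crossed the groups, so the p-values are approximate here too. Hspa1a/Hspa1b and Dnajb1 had r = 0.967 and rho = 0.857 (exact permutation p = 0.00087 and 0.011, adjusted over 36 pairs 0.016 and 0.055; r = 0.942 without 2 mice). Hspa1a/Hspa1b and Hspb1 had r = 0.816 and rho = 0.667 (exact permutation p = 0.013 and 0.083, adjusted 0.040 and 0.176; r = 0.637 without 2 mice). Hspd1 and Hspe1 had r = 0.576 and rho = 0.690 (exact permutation p = 0.137 and 0.069, adjusted 0.259 and 0.156; r = 0.690 without 2 mice). Hsp90ab1 and Hspa1a/Hspa1b had r = 0.044 and rho = -0.024 (exact permutation p = 0.911 and 0.977, adjusted 0.979 and 0.977; r = -0.935 without 2 mice). Hsp90ab1 and Hspb1 had r = -0.067 and rho = -0.024 (exact permutation p = 0.878 and 0.977, adjusted 0.979 and 0.977; r = 0.206 without 2 mice). Over all 36 pairs the median r was 0.607 at 20 weeks, and 0.608 with 2 mice left out of each pair. Whether the cohorts differ in these correlations was not tested.

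Among loci with a regular gene symbol, those whose values most resembled the cytosolic members at 39 weeks were led by another Hsp70 partner. For each of 11432 loci, the deviation from the group mean was correlated with the mean deviation of Hsph1, Dnajb1, Hspa8, Hsp90aa1 and Hsp90ab1 over 17 mice, and the value is a description. Loci named only as numbered predicted genes, clones or small RNAs were then passed over, whatever their correlation, and the order below is among the rest. Dnaja1, an Hsp40 protein, came highest at r = 0.951, followed by Nktr (0.947), Bcl3 (0.937), Chordc1 (0.927), Eif2ak3 (0.926), Cflar (0.920), Elavl1 (0.919), Txndc11 (0.919), Gtf2f1 (0.916) and Zfp568 (0.914). Eif2ak3 encodes PERK, a stress sensor of the endoplasmic reticulum, and Bcl3 a regulator of NF-kappaB. Without untreated wild type replicate 2, the mouse farthest out, the 10 values ran from 0.837 to 0.912. Over the 8 mice at 20 weeks they ran from -0.793 for Zfp568 to 0.775 for Chordc1, and Dnaja1 had -0.11. Dnaja1 stood at 425 FPKM in untreated wild type replicate 2, against 77.8 to 167 FPKM in the other 16 older mice.

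Some partners were high in the 3 older mice with the highest Hsp90aa1 and Hspb1. Stip1, which joins Hsp70 to Hsp90, was 67.2 FPKM in untreated Ncoa5+/- replicate 5 and 65.3 FPKM in untreated wild type replicate 4, and 73.2 FPKM in untreated wild type replicate 2; the other 14 older mice had 27.6 to 55.7 FPKM. Ahsa1, which activates Hsp90, was 97.6, 95.9 and 96.7 FPKM in these 3 mice and 52.4 to 81.0 FPKM in the others. Hspa4l, an Hsp110 protein, was 8.42, 7.67 and 6.65 FPKM in the 3 and 2.60 to 4.40 FPKM in the others. These genes were named after their values were seen. Rbm3, a gene known to be induced by cooling, was likewise named after its values were seen. It was 30.6, 24.9 and 36.9 FPKM in the same 3 mice, 29.9 FPKM in metformin-treated wild type replicate 3, and 31.96 to 54.4 FPKM in the other 13. The 36.9 FPKM of untreated wild type replicate 2 lay within that last range, and the part of temperature was not tested.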

How the data were processed

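Liver RNA of 25 mice was sequenced by the submitters, the 20-week libraries on a HiSeq2500 and the 39-week libraries on a HiSeq4000, per the labels. Per the submitters' processing notes, Trimmomatic 0.33, TopHat2, Cufflinks and Cuffnorm were used with GRCm38.p5; further versions are not given in the sources used here. The authors deposited FPKM per locus and mouse, scaled within each cohort, and comparison tables with group FPKM, log2 fold changes, p-values, q-values and a test score, which was not used. Those deposited tables give no read counts, so depth and counting error are unknown.

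Loci averaging 1 FPKM or more were tested on log2(FPKM + 1) with limma 3.58.1 (R 4.3.3; empirical Bayes with trend), each cohort apart, with all groups of a cohort in the fit and no covariates. Fold changes on this scale understate the change of low loci. A locus was left out as a failed estimate when it was listed at 0 in every mouse of a group but well expressed in another group. Well expressed means above 0 in every mouse of that group, with a group mean of at least 1 FPKM. This rule used the group labels, so all-or-none differences between groups were not tested. It left out 15 loci at 20 weeks and 14 at 39 weeks. P-values were adjusted over all loci, with a threshold of 0.05. They set the difference between group means against the spread between mice within the groups. The fit was also run on simulated data in which loci varied independently and all groups had the same spread. Several of the heat shock loci varied together and the groups differed in spread. That run therefore does not show how the fit behaves for them. Facility, instrument and age changed together, so no test crosses the cohorts.

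The members and lists were chosen with earlier results of these data known. Named were all members, Hsf1, up to 3 genes of smallest p per partner list and comparison, and 10 loci like the mean of 5 cytosolic members. These 10 were the most alike among loci with a regular gene symbol. Alternatives covered the pseudocount, the filter, scaling, weights, failed estimates, libraries that stood apart (2 such sets chosen after the data were seen) and each mouse in turn.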

Additional observations from a re-analysis of the deposited data

Results flagged for a closer look

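In 3 of the 45 combinations of a heat shock locus and a group of 4 or 5 mice, the highest mouse lay far from the others of its group; chance gives about 1 in 20. Hspa1a/Hspa1b stood at 31.05 FPKM in Ncoa5+/- replicate 4 at 20 weeks, against 2.68 to 4.32 FPKM in the other 3 mice of that group. Hsp90aa1 stood at 18.74 FPKM in untreated Ncoa5+/- replicate 5 at 39 weeks, against 3.27 to 5.44 FPKM in the other 4. Hspb1 stood at 29.95 FPKM in metformin-treated Ncoa5+/- replicate 2, against 18.6 to 21.3 FPKM in the other 4.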

How the results depend on the processing

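Under every alternative run, limma called 0 of the 9 heat shock loci in each of the 6 comparisons, and the smallest adjusted p with 1 mouse left out was 0.278 (Hsph1 at 20 weeks). No paired analysis was possible because the labels give no replicate numbers shared between groups. Directions were less stable, and the cause was not tested. With quantile normalization the log2 fold change at 20 weeks was -0.0212 for Hspa8 and -0.0063 for Hspd1, between labels with metformin 0.0186 for Hspa8, 0.0195 for Hsp90ab1 and 0.0391 for Hspd1, and for metformin in mice labelled Ncoa5+/- 7e-04 for Hspd1. Array weights gave 0.0079 for Dnajb1 and 0.0278 for Hspd1 in that last comparison. Without the libraries with over 70% of FPKM in 50 loci, Hspa1a/Hspa1b was -0.2586 there and Hspe1 -0.0102 in the interaction. Without the mice with Fos above 5 FPKM, an alternative chosen after seeing the data, Hspa8 was -0.0119 at 20 weeks. Without the wild type libraries 3 and 4 at 20 weeks, chosen likewise, it was -0.1508. Without the mice with Fos above 5 FPKM, the values between labels without metformin were 0.8571 for Hspa1a/Hspa1b, 0.2194 for Hsph1 and 0.3896 for Dnajb1. For metformin in wild type mice that same alternative gave 1.2732 for Hspa1a/Hspa1b, 0.2757 for Hspa8, 0.13 for Hsph1 and 0.4168 for Dnajb1. It gave an interaction of -1.1299 for Hspa1a/Hspa1b, -0.0633 for Hspa8, -0.3905 for Hsph1 and -0.0139 for Hsp90ab1. The interaction was likewise -0.4517 for Dnajb1, -0.0526 for Hspb1 and -0.0644 for Hspe1.

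With 1 mouse left out, signs turned within these ranges. At 20 weeks Hspa8 ran from -0.0119 to 0.3055. Between labels with metformin Hspa1a/Hspa1b ran from -1.0618 to 0.8274, Hspa8 from -0.2474 to 0.1804, Hsph1 from -0.8575 to 0.6579, Hsp90aa1 from -0.5854 to 0.2691, Hsp90ab1 from -0.2452 to 0.1151, Dnajb1 from -0.4407 to 0.37 and Hspd1 from -0.104 to 0.055. For metformin in mice labelled Ncoa5+/- Hspa1a/Hspa1b ran from -0.1688 to 0.3709, Dnajb1 from -0.1637 to 0.0983, Hspb1 from -0.6071 to 0.0147 and Hspd1 from -0.0675 to 0.0616. For metformin in wild type mice Hspa1a/Hspa1b ran from -1.9089 to 0.1415. In the interaction Dnajb1 ran from -0.0072 to 1.5532, Hspb1 from -0.049 to 1.0457 and Hspe1 from -0.0549 to 0.171.

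Over all loci, limma's 30 calls between labels without metformin became 11 with the compared groups alone and 14 without the mice with Fos above 5 FPKM, and 18 without either untreated wild type replicate 2 or 4. Its 18 calls between labels with metformin became 31 with failed estimates kept, 10 with a pseudocount of 5, and 11, 4 or 5 without metformin-treated wild type replicate 1, 2 or 3. Failed estimates kept gave 13 calls at 20 weeks in place of 0, and leaving out wild type replicate 4 gave 4, or 5 without replicate 3 as well. In the metformin comparisons and the interaction, 0 calls became at most 5. The fit on the compared groups alone does not apply to the 20-week comparison or the interaction.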

Other observations

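Chaperones of the endoplasmic reticulum were the partner group with the most low p-values at 20 weeks, 12 of 15 loci at an unadjusted limma p under 0.05, all higher in mice labelled Ncoa5+/-, against 5.05% of all loci, and 0 called after adjustment, with a median log2 fold change of 0.60. Without wild type replicates 3 and 4, a choice made after the values were seen, 6 of 15 were, against 1.05% of all loci, with a median of 0.46. In untreated mice at 39 weeks 12 of 14 such loci were negative, against 55.5% of all loci, with a median of -0.26, and for metformin in wild type mice 14 of 14 were negative, against 52.5% of all loci, with a median of -0.49, and 0 were called. The comparison without metformin and the metformin comparison in wild type mice share their untreated wild type mice.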
